A study of Mus musculus with 6 samples.

Results

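The Toll-like receptor genes Tlr1, Tlr2, Tlr3, Tlr4, Tlr6, Tlr7 and Tlr9, the co-receptor genes Cd14 and Ly96 and the adaptor gene Myd88 were measured in dermal fibroblasts sorted from mouse ears. Members were taken by name: every probe set whose platform annotation names only 1 of these 10 genes was used, which gave 16 of the 45037 probe sets on the array that are not controls. CAF, the cancer-associated fibroblasts, were taken from ears with visible dysplasia in K14-HPV16 mice, in which a keratin 14 promoter drives human papillomavirus 16 genes in basal keratinocytes and not in the fibroblasts themselves. NDF, the normal dermal fibroblasts, came from normal ears of non-transgenic FVB/n mice. All mice were males 4 months old, and all cells were sorted as positive for PDGFRα, a surface receptor of fibroblasts. Each group had 3 arrays, labelled as biological repetitions. The protocol names 15 mice per genotype and does not say whether each repetition was its own pool, so the p-values cover only the spread among these arrays, which may be technical. The values are log2 intensities made by the authors, whose array medians lay between 4.73 and 4.87, and the number of arrays limits the precision.

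Toll-like receptors are membrane proteins that bind microbial molecules, and some also bind products of damaged tissue. Tlr4 recognises bacterial endotoxin together with MD-2, the product of Ly96, after CD14 has handed the endotoxin over. Tlr2 pairs with Tlr1 or Tlr6 to bind bacterial lipoproteins, and Tlr3, Tlr7 and Tlr9 sense double-stranded RNA, single-stranded RNA and unmethylated DNA inside endosomes. All of these receptors except Tlr3 signal through the adaptor MyD88, which leads to activation of NF-κB, the transcription factor named in the study's title. In skin, fibroblasts and keratinocytes carry several of them beside resident and recruited leukocytes.

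CAF replicate 3 stood apart from the other arrays. Over 18193 genes, CAF replicate 3 correlated with the other CAF arrays at r = 0.938 and 0.931, whereas those correlated with each other at 0.986 and the NDF arrays among themselves at 0.981 to 0.987. Fibroblast genes were high in both groups: the mean of 12 dermal fibroblast genes was 11.53 to 11.93 on CAF arrays and 11.73 to 11.92 on NDF arrays (log2 intensity), and the sort marker Pdgfra differed by 0.08. The mean log2 levels of the neutrophil, pan-leukocyte, macrophage and dendritic cell, and T cell lists were higher on every CAF array than on any NDF array, while those of the mast cell list and of the list for B cells and plasmacytoid dendritic cells overlapped. The mean of 9 neutrophil genes was 7.87 to 9.51 on CAF arrays and 4.03 to 5.05 on NDF arrays, and that of 6 pan-leukocyte genes was 8.13 to 9.16 on CAF arrays and 4.89 to 5.96 on NDF arrays. For 15 macrophage and dendritic cell genes it was 6.80 to 8.24 in CAF and 5.07 to 5.93 in NDF. Endothelial and keratinocyte lists were higher too, at 6.80 to 7.92 and 8.93 to 10.08 in CAF, against 5.37 to 5.79 and 8.22 to 8.34 in NDF. T cell and mast cell lists were at 5.59 to 6.997 and 4.14 to 5.75 in CAF, against 4.01 to 4.24 and 4.25 to 4.53 in NDF. The list for B cells and plasmacytoid dendritic cells was at 5.14 to 5.61 in CAF and 5.25 to 5.32 in NDF.

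Of the 10 genes, Cd14 alone passed the test, and it was higher in CAF. Cd14 encodes a surface and soluble protein that binds endotoxin and passes it on to the receptor complex, and monocytes, macrophages and neutrophils carry it. Its log2 intensity was 8.86, 10.29 and 8.63 on the CAF arrays, against 5.08, 5.02 and 5.60 on the NDF arrays. Every CAF array thus lay more than 3 log2 units above every NDF array, and CAF replicate 2 was the highest. The means were 9.26 ± 0.90 in CAF and 5.23 ± 0.32 in NDF (SD, n = 3 each), a difference of 4.03 ± 0.45 (SE), or 16.3-fold on this scale. The limma adjusted p was 0.0252 over all 18193 genes and 0.0472 when all 45037 probe sets were tested. The difference ranked 42nd from the top among all genes.

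At an adjusted p below 0.05, 0.489% of all genes were higher in CAF, 0.0275% lower and 0.517% either, so 1 call among 10 genes is read against that background. All CAF arrays lay above all NDF arrays for 3 of the 10 genes (Cd14, Tlr6 and Myd88), where 6.78% of all genes did so. For none of the 10 did all CAF arrays lie below, where 8.66% of all genes did so. Before adjustment 3 of the 10 had a limma p below 0.05, all with higher CAF means (4.93% of all genes did so, and 4.02% with lower means). The median difference of the 10 genes was 0.42, and that of all genes was -0.04. Of the 16 probe sets 1 was called higher and 0 lower, where 0.144% and 0.0178% of all probe sets were (0.162% either), and 3 had all CAF arrays above and 0 all below, where 5.69% and 7.14% of all probe sets did. The Cd14 call was lost when any 1 NDF array was left out: without NDF replicate 1, 2 or 3 the difference was 3.95, 3.92 or 4.21 and the limma adjusted p 0.114, 0.126 or 0.115. Without CAF replicate 3 it was 4.34 (adjusted p = 0.0195), and without that array and NDF replicate 1 it was 4.27 (adjusted p = 0.0399).

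**Figure D1:**
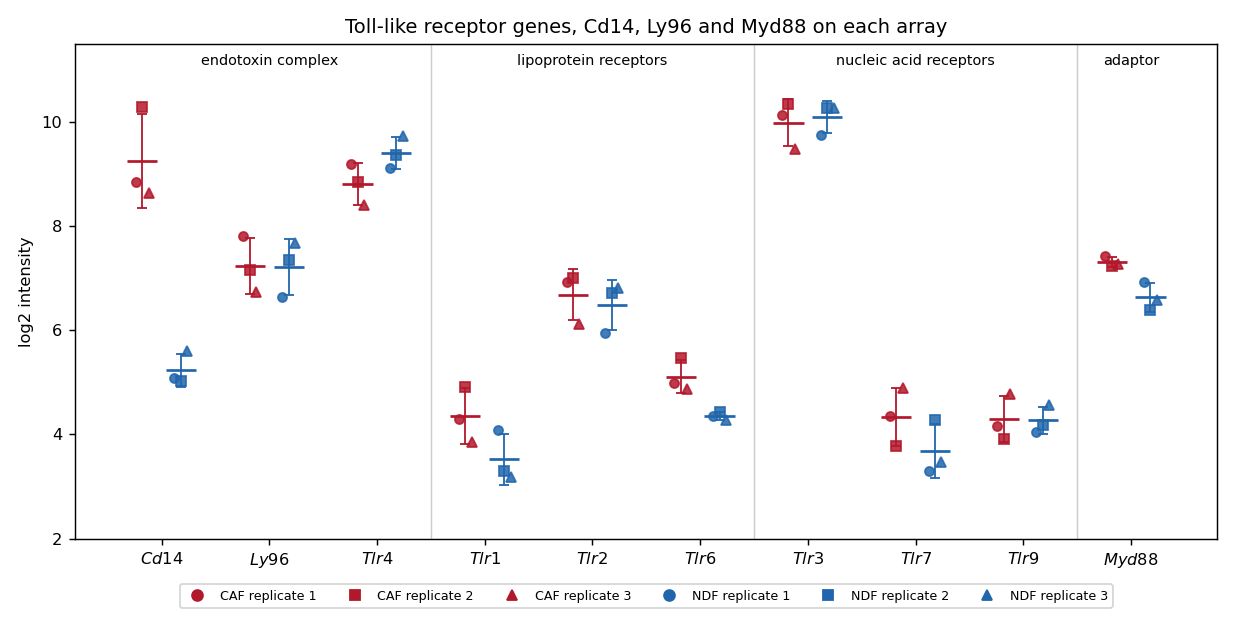
Log2 intensity of the 10 genes on each array, CAF (red) left of NDF (blue), with the 3 replicates as symbols, horizontal lines for means and error bars for the SD (n = 3 each). Cd14 has CAF arrays at 8.63 to 10.29 and NDF arrays at 5.02 to 5.60, and among the other genes Tlr6 and Myd88 alone have groups that do not overlap. Levels of different genes come from different probe sets and cannot be set against each other.

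The partners of CD14 in the endotoxin complex did not pass the test. Ly96, which encodes the endotoxin-binding subunit MD-2, was at 7.81, 7.15 and 6.74 on CAF arrays, against 6.63, 7.36 and 7.67 on NDF arrays. The groups overlapped almost wholly, with means of 7.23 ± 0.54 in CAF and 7.22 ± 0.53 in NDF. The difference was 0.01, with a 95% interval of -0.87 to 0.89 (limma adjusted p = 0.997). Tlr4, the signalling receptor of the complex, was at 9.20, 8.85 and 8.40 on CAF arrays, against 9.12, 9.37 and 9.72 on NDF arrays. CAF replicates 2 and 3 were below every NDF array and CAF replicate 1 was above NDF replicate 1. The difference was -0.59 ± 0.27, with a 95% interval of -1.23 to 0.06 (limma adjusted p = 0.614). Set against the Tlr4 probe set used within each array, Cd14 changed by 4.61 more, and set against Ly96 by 4.02 more. The exact permutation p was 0.1 for each (two-sided), the smallest that 3 arrays against 3 can give. Both differences, Cd14 minus partner, were higher on 3 of 3 CAF arrays than on any NDF array. Either partner varied less over the 6 arrays than the gap of Cd14 between the groups. This outcome was therefore fixed by Cd14 and is no separate test of the partners.

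The 4 probe sets for Tlr4 disagreed in direction. The set of highest mean, 1418162_at, gave the values above. A second set with the same annotated accession, 1418163_at, was at 5.82, 5.32 and 6.81 on CAF arrays, against 4.75, 5.60 and 5.49 on NDF arrays, a difference of 0.70 ± 0.43. The set 1442827_at was at 5.57, 4.93 and 2.95 on CAF arrays, against 4.40, 7.17 and 6.91 on NDF arrays. It spanned over 4 log2 units within the 6 arrays, with a difference of -1.68 ± 0.93. The fourth, 1430695_at, was near the floor, with means of 3.24 in CAF and 3.11 in NDF. None passed the limma test over all probe sets (adjusted p = 0.774, 0.881, 0.855 and 0.981), and 0.162% of all probe sets did. With the mean of the 4 sets the Tlr4 difference was -0.36 (adjusted p = 0.865), so no direction is given for Tlr4.

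The receptors for lipoproteins showed smaller differences. Tlr6, which with Tlr2 recognises diacylated lipoproteins, was at 4.997, 5.46 and 4.87 on CAF arrays, against 4.35, 4.44 and 4.27 on NDF arrays. All CAF arrays were above all NDF arrays, by a difference of 0.76 ± 0.21 (95% interval 0.26 to 1.26), which did not pass over all genes (limma adjusted p = 0.287). Tlr1, the partner of Tlr2 for triacylated lipoproteins, was at 4.30, 4.92 and 3.85 on CAF arrays, against 4.09, 3.29 and 3.19 on NDF arrays. The groups overlapped, since NDF replicate 1 was above CAF replicate 3, and the difference was 0.83 ± 0.36 (limma adjusted p = 0.570). Both probe sets lay below the median probe set mean of 4.84, in a range where these values are compressed. Tlr2, the shared subunit, was at 6.93, 7.01 and 6.12 on CAF arrays, against 5.94, 6.71 and 6.82 on NDF arrays. The difference was 0.20, with a 95% interval of -0.61 to 1.01 (limma adjusted p = 0.943), and the lowest array of each group, CAF replicate 3 and NDF replicate 1, stood below the others by over 0.7. Without NDF replicate 1 the Tlr2 difference was -0.08.

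Of the receptors for nucleic acids, none differed by limma. Tlr3, the sensor of double-stranded RNA, was at 10.14, 10.35 and 9.48 on CAF arrays, against 9.74, 10.27 and 10.27 on NDF arrays. The difference was -0.11, with a 95% interval of -0.79 to 0.58 (adjusted p = 0.968). Its other probe set had means of 5.28 in CAF and 5.23 in NDF and differed by 0.04. Tlr7, the sensor of single-stranded RNA, was at 4.35, 3.77 and 4.89 on CAF arrays, against 3.30, 4.28 and 3.47 on NDF arrays. The groups overlapped, and the difference was 0.65 ± 0.37 (adjusted p = 0.714). The 2 other Tlr7 probe sets lay between 2.97 and 3.49 on all 6 arrays and differed by 0.10 and 0.02. Tlr9, which binds unmethylated DNA and is best known from B cells and plasmacytoid dendritic cells, was at 4.17, 3.92 and 4.78 on CAF arrays, against 4.05, 4.19 and 4.57 on NDF arrays. Its difference was 0.02, with a 95% interval of -0.64 to 0.68 (adjusted p = 0.994).

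Myd88, the adaptor shared by nearly all of these receptors and by the interleukin 1 receptor, had the most even values among the CAF arrays. It was at 7.43, 7.24 and 7.28 on CAF arrays, against 6.93, 6.38 and 6.59 on NDF arrays. All CAF arrays were above all NDF arrays, the lowest of them by 0.3 over the highest NDF array. The difference was 0.68 ± 0.20, with a 95% interval of 0.19 to 1.16, or 1.60-fold. It did not pass over all genes (limma adjusted p = 0.335).

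**Figure D2:**
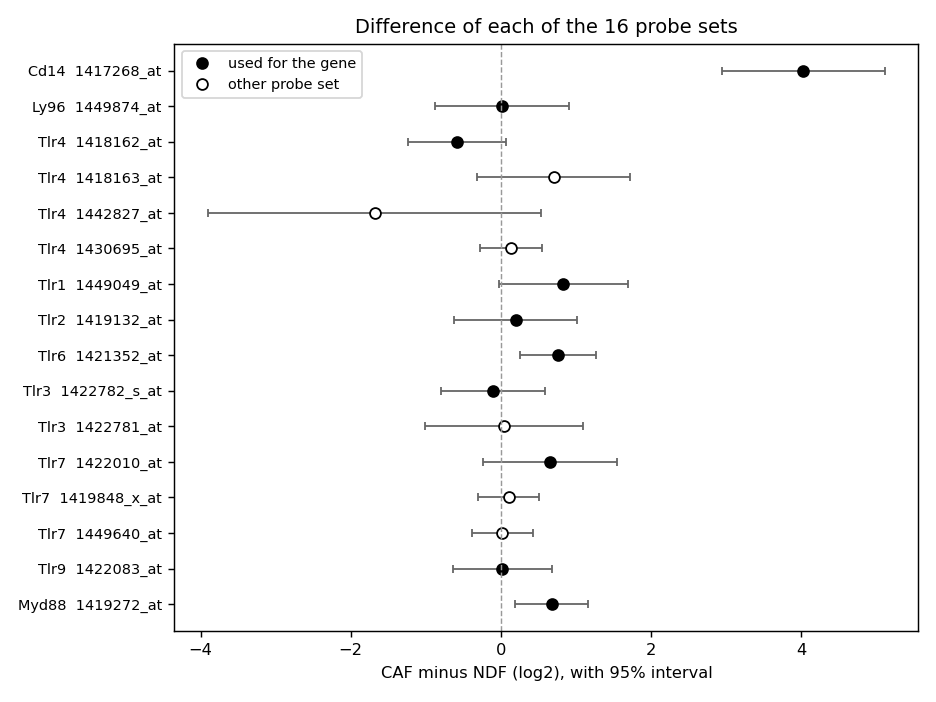
Difference between CAF and NDF (log2, horizontal axis) for each of the 16 probe sets, with 95% intervals from the limma fit over all probe sets. Filled circles are the probe sets used for a gene and open circles are its other sets. The interval of Cd14 runs from 2.94 to 5.11, those of Tlr6 and Myd88 lie above 0, and the 4 sets of Tlr4 fall on both sides of 0.

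Within a group, several members were low on the same array. CAF replicate 3 was the lowest CAF array for 7 of the 10 genes (Tlr1, Tlr2, Tlr3, Tlr4, Tlr6, Cd14 and Ly96) and the highest for Tlr7 and Tlr9. NDF replicate 1 was the lowest NDF array for 6 genes, among them Tlr2, Tlr3, Tlr4 and Ly96. How often these arrays were the lowest over all genes was not counted, so this is not read as a trait of the members. CAF replicate 2 was the highest CAF array for Cd14, Tlr1, Tlr2, Tlr3 and Tlr6. CAF replicate 2 also had the highest neutrophil and pan-leukocyte means of all arrays, at 9.51 and 9.16, and CAF replicate 3 the highest macrophage and dendritic cell mean, at 8.24. The order of Cd14 over the CAF arrays was replicate 2 highest and replicate 3 lowest. In these 3 lists only Ptprc, the neutrophil genes Mmp9 and Hdc and the myeloid genes Itgax and Aif1 shared it. All 7 mast cell genes and the endothelial genes Pecam1, Tek, Emcn and Vwf shared it too. Its share over all genes was not counted, so no cell type is read from this order. Cd14 and the leukocyte markers were higher on the same arrays: Ptprc, the CD45 gene carried by all leukocytes, differed by 4.33 ± 0.45, the myeloid lectin gene Clec4d by 6.47 ± 0.51, the neutrophil gene S100a8 by 6.04 ± 0.74 and the myeloid adaptor gene Tyrobp by 3.65 ± 0.32. The limma adjusted p values were 0.0197, 0.00982, 0.0304 and 0.0134. Other leukocyte genes did not pass. The macrophage genes Csf1r, Adgre1 and Cx3cr1 differed by 0.67, 1.24 and 0.05 (limma adjusted p = 0.588, 0.581 and 0.988). The other Ptprc probe set differed by 0.89, the value for Ptprc without probe sets ending in _a_at, _s_at or _x_at (limma adjusted p = 0.702). The mean of both gave 2.61 (adjusted p = 0.0549). The calls of Ptprc, Clec4d and Tyrobp were lost without any 1 NDF array (adjusted p = 0.0564 to 0.114), and that of S100a8 without CAF replicate 1 or 2 or NDF replicate 2 or 3 (adjusted p = 0.0621 to 0.166). In such bulk samples more cells of a type and more RNA per cell cannot be told apart, and the part of leukocytes in the Cd14 difference was not tested. Over all genes, 0.489% rose and 0.0275% fell by limma. Of these marker lists 3 of 9 neutrophil, 3 of 6 pan-leukocyte, 1 of 15 macrophage and dendritic cell and 0 of 12 fibroblast genes rose, and 0 fell. In the other lists 2 of 6 T cell genes and 1 of 9 endothelial genes rose, and none of 10 keratinocyte, 8 B cell and plasmacytoid dendritic cell or 7 mast cell genes passed.

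**Figure D3:**
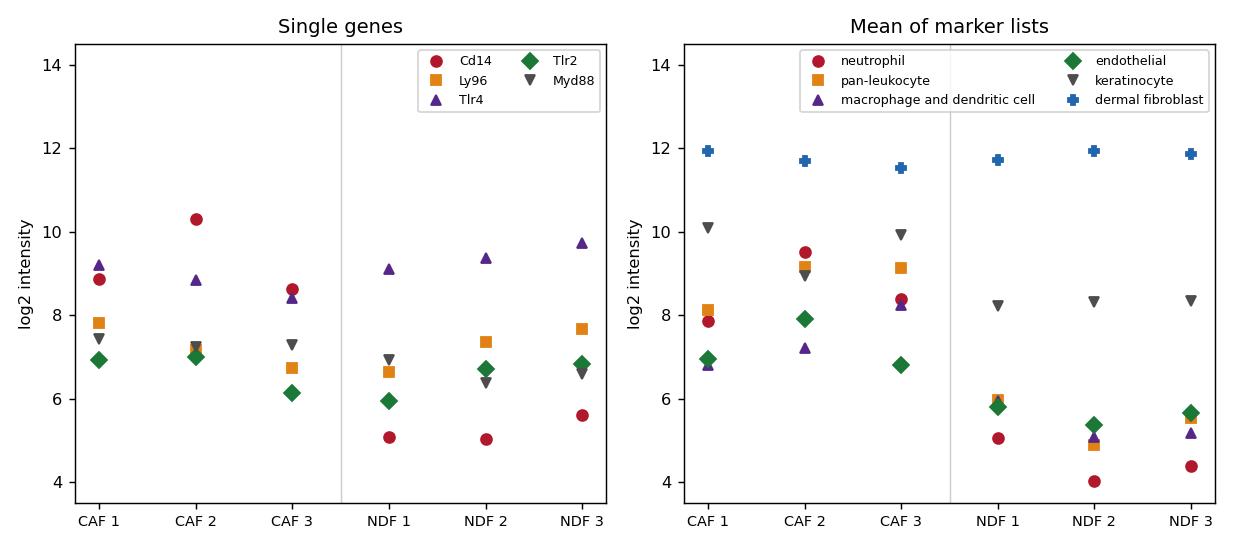
Log2 intensity per array (CAF left of NDF) of 5 single genes (left panel) and of the mean of 6 cell type marker lists (right panel), 1 point per array. Cd14 and the neutrophil and pan-leukocyte lists are higher on all 3 CAF arrays, while Ly96, Tlr4, Tlr2 and the fibroblast list overlap between the groups.

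The genes whose values over the 6 arrays were most like those of Cd14 were Il1b, Csf2rb, Clec4d and Flt1, at Pearson r = 0.996, 0.995, 0.995 and 0.994. They were sought among 6210 genes that varied by at least 1 log2 unit and whose higher group mean reached the median probe set mean of 4.84. Clec4d reached it in CAF only, with an NDF mean of 4.38. Il1b encodes interleukin 1β, Csf2rb a receptor subunit of myeloid cytokines and Flt1 a receptor of vascular endothelium. For Myd88 they were Pdlim1, Slc16a6, Gjb2 and Car12 (r = 0.988, 0.981, 0.976 and 0.974). For Tlr4 they were Zfp30, Gatc, Zyg11b and Tspan3 (r = 0.990 to 0.985). Like the Tlr4 probe set used they had lower means in CAF, which follows from the choice by r. Zfp30 reached the median probe set mean in NDF only, with a CAF mean of 4.64. For Tlr2 they were Zfp160, Xpc, Adam33 and Sel1l3 (r = 0.979 to 0.975). With 6 arrays in 2 groups, these values describe a shared pattern over the same arrays and nothing more.

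RefSeq promoter windows, from 250 bases before to 50 after an annotated start in build GRCm38.p6, were at hand for Tlr1, Tlr2, Tlr3, Tlr6, Tlr9 and Myd88, in 8 windows. Tlr6 and Myd88 are shown because their groups did not overlap, and Tlr2 and Tlr3, whose groups did, because theirs were the only windows of the 8 with an NF-κB match. All 4 lie on the minus strand: Tlr6 at chr5:64959117-64959416 (the first of 2 windows), Myd88 at chr9:119339969-119340268, Tlr2 at chr3:83841559-83841858 and Tlr3 at chr8:45410331-45410630. They are written 5′ to 3′ along the gene, and capitals mark matches, on either strand, to any of 4 motifs: the NF-κB consensus, AP-1 (TGANTCA), the PU.1 core (GAGGAA) and an interferon response element (GAAA, any 2 bases, GAAA), with overlaps allowed.
Tlr6: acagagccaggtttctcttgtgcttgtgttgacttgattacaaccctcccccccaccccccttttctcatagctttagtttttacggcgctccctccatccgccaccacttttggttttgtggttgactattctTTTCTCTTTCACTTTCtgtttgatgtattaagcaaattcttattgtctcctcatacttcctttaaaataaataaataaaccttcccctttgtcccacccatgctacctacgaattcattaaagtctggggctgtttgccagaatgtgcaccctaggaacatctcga
Myd88: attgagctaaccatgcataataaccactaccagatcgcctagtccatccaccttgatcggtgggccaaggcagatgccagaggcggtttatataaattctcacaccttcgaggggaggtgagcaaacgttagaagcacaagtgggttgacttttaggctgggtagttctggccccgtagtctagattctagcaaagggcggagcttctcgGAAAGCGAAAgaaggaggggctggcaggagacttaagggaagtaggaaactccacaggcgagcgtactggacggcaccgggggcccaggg
Tlr2: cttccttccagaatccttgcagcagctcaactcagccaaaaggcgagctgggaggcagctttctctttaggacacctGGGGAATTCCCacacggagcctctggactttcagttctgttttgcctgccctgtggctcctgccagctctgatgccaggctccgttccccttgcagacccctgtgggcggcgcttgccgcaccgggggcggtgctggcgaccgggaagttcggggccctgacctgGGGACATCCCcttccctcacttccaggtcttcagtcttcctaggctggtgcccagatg
Tlr3: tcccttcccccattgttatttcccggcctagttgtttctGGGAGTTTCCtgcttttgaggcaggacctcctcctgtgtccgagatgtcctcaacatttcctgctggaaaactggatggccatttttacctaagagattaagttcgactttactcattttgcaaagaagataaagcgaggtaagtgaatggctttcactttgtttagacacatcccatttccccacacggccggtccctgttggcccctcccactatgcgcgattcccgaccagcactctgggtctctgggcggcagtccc
The capitals in Tlr6 and Myd88 are interferon response elements, 2 overlapping matches starting 116 and 110 bases before the Tlr6 start and 1 match 40 bases before the Myd88 start. The capitals in Tlr2 and Tlr3 are NF-κB matches. Of all 32851 windows of this length, 3.44% held the interferon response element, 8.46% the NF-κB consensus, 7.81% AP-1 and 28.3% the PU.1 core. The other Tlr6 window held none of the 4 motifs, Tlr9 held AP-1 and PU.1 matches, and 1 of 2 Tlr1 windows held a PU.1 match. A match describes the letters and is not a bound site.

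Among the other genes of the pathway, the kinase gene Map3k8 and the receptor gene Clec7a passed the test. Of 50 measured genes in 7 lists of receptors, ligand carriers, chaperones, adaptors, kinases, interferon regulatory factors and negative regulators, 2 rose and 0 fell by limma, where 0.489% and 0.0275% of all genes did. Before adjustment 9 of the 50 had a p below 0.05, all with higher CAF means, as 4.93% of all genes did. The median of their differences was 0.06. The 6 others of the 56 listed had no probe set naming them alone. Of these 50 genes, 11 had all CAF arrays above all NDF arrays and 1 had them all below, against 6.78% and 8.66% of all genes.

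Map3k8 encodes the kinase TPL2, which relays Toll-like receptor signals to ERK. It was at 7.46, 7.43 and 7.12 on CAF arrays, against 5.47, 6.02 and 5.26 on NDF arrays, so that the groups were over 1 log2 unit apart. The difference was 1.76 ± 0.25 (limma adjusted p = 0.0461, and 0.0789 over all probe sets). Clec7a encodes the myeloid β-glucan receptor dectin-1, which cooperates with Tlr2. It was at 7.07, 8.51 and 7.47 on CAF arrays, against 4.72, 3.75 and 3.62 on NDF arrays, highest like Cd14 on CAF replicate 2. The difference was 3.65 ± 0.45 (adjusted p = 0.0304, and 0.0572 over all probe sets). The Map3k8 call was lost without any 1 of CAF replicates 1 and 2 and the NDF replicates (adjusted p = 0.100 to 0.211), and the Clec7a call without CAF replicate 2 or any 1 NDF replicate (adjusted p = 0.0557 to 0.167). Without CAF replicate 3 both passed (adjusted p = 0.0409 and 0.0416). Map3k8 did not pass without CAF replicate 3 and NDF replicate 1 together (limma adjusted p = 0.0810). Nor did it pass when limma was fitted with an intensity trend (adjusted p = 0.0570). Under 17 alternatives Map3k8 passed in 9 and Clec7a in 12.

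None of the 10 negative regulators passed by limma. The 3 with the smallest p were also the 3 of 10 with all CAF arrays above all NDF arrays, where 6.78% of all genes did so. A small p and such a separation go together, so this is no separate result. Trim30a, whose product restrains Toll-like receptor signalling in macrophages, was at 8.80, 9.73 and 10.96 on CAF arrays, against 5.68, 3.49 and 5.74 on NDF arrays (difference 4.86 ± 0.76, adjusted p = 0.0622). Its other probe set differed by 0.45. The repressor gene Atf3 differed by 1.71 ± 0.29 (adjusted p = 0.0802), and Tnfaip3, the gene of the deubiquitinase A20, by 1.63 ± 0.30 (adjusted p = 0.0947). The other Tnfaip3 probe set gave -0.16. With CAF replicate 3 left out the Atf3 difference was 1.97 and passed (adjusted p = 0.0247). The median of the 10 was 0.20.

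Among 6 other receptors and relatives none passed by limma, and the median was -0.06. The 2 with the smallest p were Ly86, whose product MD-1 pairs with the receptor CD180, at 1.28 ± 0.42 (adjusted p = 0.396), and Tlr13, the sensor of bacterial ribosomal RNA in mice, at 0.85 ± 0.28 (adjusted p = 0.411). Tlr12 differed by -0.44 (adjusted p = 0.794). Of 4 other adaptors none passed, and Pik3ap1, the adaptor BCAP, differed by 1.55 ± 0.45 (adjusted p = 0.317), but its other probe set by -0.04. Ticam1, the adaptor TRIF through which Tlr3 signals, and Sarm1 differed by -0.36 and -0.11. Among 5 interferon regulatory factors none passed. Irf8, a factor of myeloid cells, differed by 0.97 ± 0.21 (adjusted p = 0.146, other probe set 0.27), Irf7 by 0.34 and Irf1 by 0.39. The 6 genes of receptor folding and transport had a median of -0.01. Cnpy4 differed by -0.47, Unc93b1, which escorts the endosomal receptors, by 0.30, and Hsp90b1, the chaperone of most of the family, by 0.20. The other Hsp90b1 probe set differed by -0.36, so no direction is given for it.

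Of 18 measured genes that endotoxin induces in macrophages, 7 rose and 0 fell by limma, where 0.489% and 0.0275% of all genes did, and the median difference was 2.51, beside -0.04 over all genes. The 7 were the chemokine genes Cxcl1, Cxcl2 and Ccl3, the cytokine genes Il1b and Il6, the cyclooxygenase gene Ptgs2 and the acute phase gene Saa3, with differences from 3.92 to 7.82. The calls of Il1b, Ccl3 and Saa3 were lost without any 1 NDF array (adjusted p = 0.0504 to 0.111), and that of Ptgs2 without CAF replicate 2 or NDF replicate 2 or 3 (adjusted p = 0.0520 to 0.0914). Cxcl1, Cxcl2 and Il6 passed whichever array was left out, and without CAF replicate 3 all 7 passed. Of the 18 genes, 12 had all CAF arrays above all NDF arrays and 1 had them all below, where 6.78% and 8.66% of all genes did so. The list was not uniform. Differences of the genes that did not pass ran from -0.23 for Nos2 to 4.95 for Acod1 (limma adjusted p = 0.816 and 0.0505). Tnf, the tumour necrosis factor gene, was at 3.99, 3.89 and 4.42 on CAF arrays, against 3.78, 3.76 and 4.22 on NDF arrays, a difference of 0.18 (adjusted p = 0.910). Ifnb1, the interferon β gene that Tlr3 and Tlr4 induce through TRIF, differed by 0.04 (adjusted p = 0.986). Interleukin 1 and other signals are known to induce many of these genes too, and leukocytes to express several of them. The neutrophil mean was higher on the same arrays, and its part in these differences was not tested.

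**Figure D4:**
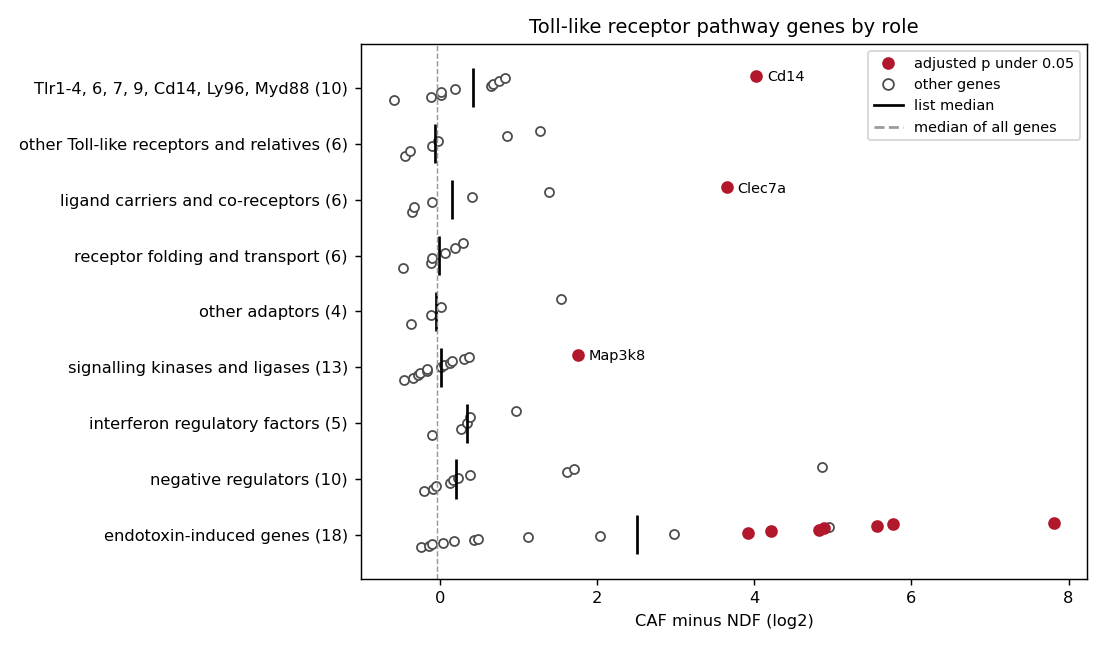
Difference between CAF and NDF (log2, horizontal axis) of each measured pathway gene, by role, with the number of genes in brackets. Red circles passed an adjusted p below 0.05, black bars are list medians and the dashed line is the median of all genes, -0.04. Outside the endotoxin-induced genes, Cd14, Clec7a and Map3k8 are the red circles, and the endotoxin-induced list has 7 of 18.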

How the data were processed

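Dermal fibroblasts of 2 groups, 3 CAF and 3 NDF samples, were profiled on Affymetrix mouse arrays after 1 round of RNA amplification, per the labels' protocols. The deposited values are log2 intensities per probe set, made with GCOS and RMA per the submitters' processing notes. For both, version and settings were not given in the sources used here. RMA corrects background, normalises the arrays to one distribution and compresses low values, so differences of dim genes are understated. Detection calls were not used here.

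The table has 45101 probe sets, of which 64 are controls. Of the other 45037, the platform annotation names 1 gene for 34945, several for 932 and none for 9160, and 34741 matched the RefSeq table by gene identifier. For each of 18193 genes the probe set of highest mean on the 6 arrays was used. CAF was tested against NDF with limma 3.58.1 in R 4.3.3 (lmFit and eBayes, two-sided, group as the only term), once over genes and once over probe sets, with Benjamini-Hochberg adjustment and a threshold of 0.05. Dim probe sets were kept. Pathway and marker lists were written from textbook knowledge. The text names every member, and of each pathway list the genes past the threshold or otherwise up to 3 with the smallest p. For Cd14, Tlr2, Tlr4 and Myd88 it names the 4 genes of highest Pearson r. Some genes of the fibroblast, macrophage and dendritic cell, neutrophil, pan-leukocyte and endothelial lists are named, by no fixed rule. No single gene of the other marker lists is named. Among the endotoxin-induced genes, Tnf, Ifnb1, Acod1 and Nos2 fall outside the rule for pathway lists and were picked with their values known. The members and lists were chosen with earlier results of these data known. The procedure was tested on simulated data of independent values, without the differences between whole arrays seen here, so that test does not bear on the calls. The alternatives were a replicate block, other normalisations, a filter on dim probe sets, other probe set rules, other variance models, array weights and leaving out arrays. Figures used matplotlib 3.10.9.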

Additional observations from a re-analysis of the deposited data

How the results depend on the processing

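Cd14 kept its direction under all 17 alternatives, with differences of 3.51 to 4.34 and adjusted p of 0.00399 to 0.126, and passed under 13 of them. No other member passed under any alternative. Same-numbered CAF and NDF arrays deviated from their group means with r = -0.15, 0.11 and -0.01, beside -0.11 to 0.12 for the other pairs. With so few arrays this cannot decide whether the numbers pair the samples, and the labels do not say. With a replicate block the counts were 20 genes (20 higher, 0 lower), 8 probe sets, 0 members (Cd14 limma adjusted p = 0.0966) and 0 other pathway genes. Il1b, Ccl3 and Ptgs2 then no longer passed (adjusted p = 0.0561, 0.0536 and 0.0678), nor did S100a8 (0.107) or Tyrobp (0.0800). The main counts were 94 genes, 89 higher and 5 lower, 73 probe sets, 1 member and 2 other pathway genes. They were 155, 135 and 20 genes and 148 probe sets with an intensity trend, and 438, 343 and 95 genes, 446 probe sets and 6 other pathway genes with array weights. Lower genes numbered 11 with equal array medians and 17 with the mean of all probe sets, and probe sets 24 on quantile normalisation and 22 without CAF replicate 3 and NDF replicate 1 together. Leaving out 1 array gave 5 to 156 genes, 5 to 138 higher and 0 to 18 lower, 7 to 78 probe sets, 0 to 1 members and 0 to 3 other pathway genes; fewer arrays were fitted, and no other cause was tested.

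Differences near 0 changed sign. Ly96 was at -0.0085 on quantile normalisation, -0.0054 with equal medians, -0.035 without CAF replicate 3 and NDF replicate 1 and -0.28 to 0.26 leaving out 1. Tlr3 was at 0.043 without probe sets ending in _a_at, _s_at or _x_at, 0.0038 with array weights and -0.29 to 0.15 leaving out 1. Tlr9 was at -0.21 with array weights, -0.34 without both arrays and -0.22 to 0.21, and Tlr2 at -0.076 to 0.48. Unc93b1 was at -0.12 without both arrays and -0.077 to 0.53, Hsp90b1 at -0.080 with the mean of its probe sets, and Sarm1 at -0.34 to 0.036. Tnf was at -0.0045 with array weights and -0.048 without both arrays, and Ifnb1 at -0.11, -0.25 and, leaving out 1 array, -0.16 to 0.21.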
